A study of Mus musculus with 6 samples.

Results

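The lower, energy-yielding steps of glycolysis were examined through 9 genes: Tpi1, Gapdh, Pgk1, Pgam1, Pgam2, Eno1, Eno2, Eno3 and Pkm. A probe set was taken as a member when the platform annotation gave it 1 of these symbols and no other. This gave 14 of the 45101 probe sets in the value table, for 8 of the 9 genes. Tpi1, Gapdh and Pgk1 had 3 probe sets each and the other genes 1 each. All 3 Gapdh probe sets are Affymetrix controls, because its 3 ordinary probe sets carried further symbols as well. Eno1, the ubiquitous enolase, matched no probe set by this rule and is not analysed here.

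The cells were C2C12, a line of mouse myoblasts that can fuse into myotubes. In 3 samples they were incubated for 72 h with 50 mM sodium pyruvate, in DMEM without other sodium pyruvate. The other 3 samples were left untreated for 72 h in basal DMEM, and the labels do not state how much pyruvate that medium held. Both media held 10% fetal bovine serum, 4 mM L-glutamine and 1% antibiotics. RNA from each sample went on 1 Affymetrix Mouse430_2 array. A control for the added sodium or the osmolality of the medium was not analysed here. The title of the study concerns mitochondrial biogenesis. Here the comparison of pyruvate with untreated cells is read for the enzymes whose pathway ends in pyruvate.

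In lower glycolysis, triose phosphates are turned into pyruvate and ATP is gained. Triose phosphate isomerase brings both products of the split sugar onto the same route. Glyceraldehyde-3-phosphate dehydrogenase, phosphoglycerate kinase, phosphoglycerate mutase, enolase and pyruvate kinase follow in that order. Mutase and enolase come as isozymes: Pgam2 and Eno3 encode the forms of adult muscle, Eno2 that of neurons, and Pgam1 and Eno1 the widely expressed forms. Several of these genes are known targets of hypoxia-inducible factor (HIF).

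Pyruvate did not move these transcripts in a common direction. Pkm, Pgk1 and Eno3 were higher in pyruvate cells on their brightest probe sets, and Tpi1 was lower on all of its 3. Of the 6 genes that could be tested, 3 rose, 1 fell and 2 did not pass (limma, adjusted p under 0.05 over all 22519 probe sets tested). Over all 10685 genes tested, 35.1% passed, 20.7% higher and 14.5% lower. By probe set, 8 of 10 members tested passed, against 32.2% of all probe sets: 4 rose and 4 fell, against 16.3% and 15.9%. After quantile normalization 2 rose and 7 fell (15.7% and 15.5% of all probe sets), and after cyclic loess 2 rose and 4 fell (15.8% and 16%). By gene, 2 rose and 3 fell after quantile normalization (20% and 14.6% of all genes), and 2 rose and 1 fell after cyclic loess (19.8% and 15.1%). The median log2 change over the 6 genes was 0.12 in the authors' scaling, against 0.03 over all genes, but -0.10 after quantile normalization and 0.02 after cyclic loess. Pgam2 lay below the signal filter, a mean signal of about 30.3, and the Gapdh controls were read in a fit that kept control probe sets. The pyruvate arrays all lay on the same side of the untreated ones in 8 of the 10 probe sets and 4 of the 6 genes. That held for 45.4% of all probe sets tested and 48.6% of all genes.

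**Figure D1:**
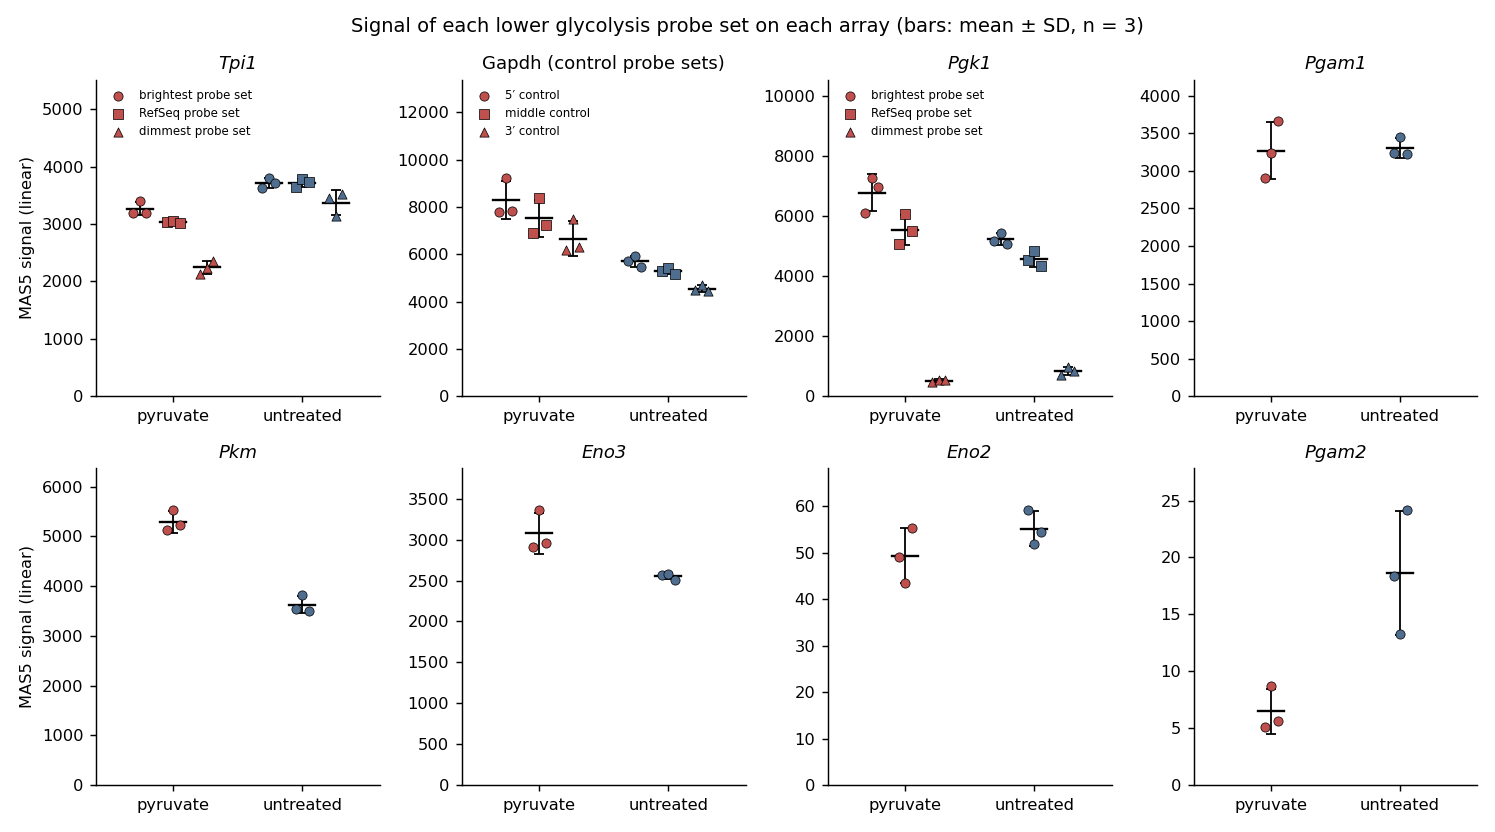
MAS5 signals (linear scale) of the 14 probe sets on each of the 6 arrays, with pyruvate in red and untreated in blue. Points are arrays, and bars give the mean ± SD of 3. Pkm arrays were at 5122 to 5538 in pyruvate cells and 3505 to 3825 in untreated cells, while every Tpi1 probe set was lower in pyruvate cells and Pgk1 had probe sets on both sides.

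The array scaling matters for these genes, because most of them are among the brightest on the array. Among the 248 tested probe sets with a mean of 12 or more on the scale of log2(signal + 16), 100% had a positive change, 96.0% were called higher and the median change was 0.43. Among the 616 probe sets between 11 and 12, 50.3% were called higher and 7.63% lower, with a median of 0.15. In the classes between 7 and 10 the medians lay between -0.00 and 0.01. The 18 spiked-in bacterial and phage controls above the filter, which are not made by the cells, were all higher on the pyruvate arrays, by 0.40 to 0.80. Each member's change is therefore given beside the median of its signal class, and beside its value after quantile normalization and cyclic loess. Quantile normalization gives the arrays 1 distribution, while cyclic loess takes out trends with signal between arrays. After cyclic loess the class of 12 or more kept a median of 0.24, against -0.002 after quantile normalization. In the class between 11 and 12 these medians were 0.01 and 0.006. How far the rise of bright signals reflects the arrays and how far the cells was not tested.

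**Figure D2:**
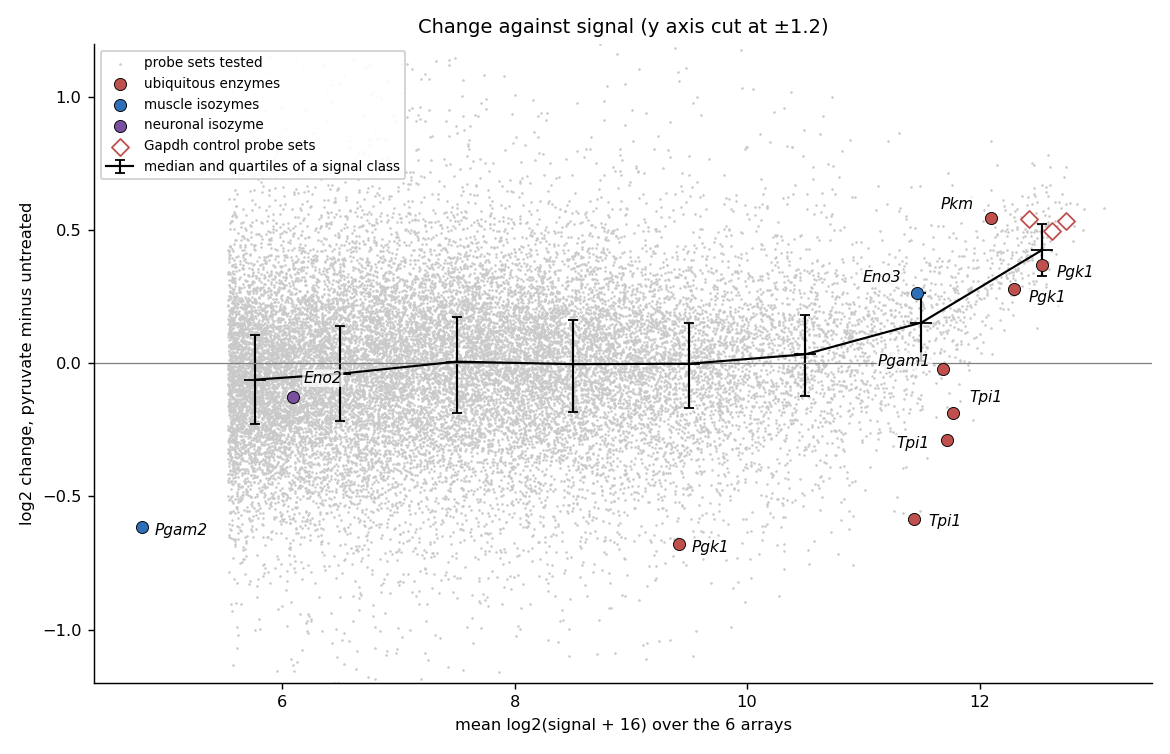
Log2 change, pyruvate minus untreated, against the mean log2(signal + 16) over the 6 arrays. Grey points are the probe sets tested, and black bars the median and quartiles of each signal class. Tpi1 and Pgam1 lie below the median of their class, 0.15. Both bright Pgk1 probe sets lie below that of theirs, 0.43, and Pkm, at 0.54, above it.

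Triose phosphate isomerase, encoded by Tpi1, was lower in pyruvate cells on each of its probe sets. The probe set built on its RefSeq transcript read 3041, 3051 and 3019 on the pyruvate arrays, against 3639, 3780 and 3726 on the untreated arrays. All pyruvate arrays lay below all untreated ones. Its log2 change was -0.29 with a standard error of 0.04 (adjusted p = 0.00055). The dimmest probe set read 2137, 2241 and 2356 with pyruvate, against 3460, 3131 and 3528 untreated. It had the widest gap, with a log2 change of -0.58 ± 0.06 (SE; adjusted p = 3.1e-05). The brightest, whose name suffix (x) marks probes that may also bind other transcripts, read 3192, 3393 and 3199 with pyruvate and 3624, 3801 and 3712 untreated. Its change was the smallest, -0.19 ± 0.05 (SE; adjusted p = 0.013), and the call was lost without pyruvate array 3 (adjusted p = 0.053), without untreated array 2 (adjusted p = 0.062) or without the variance trend (adjusted p = 0.061). The size of the Tpi1 change thus differed between probe sets, while its direction did not.

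Tpi1 fell in a signal class where most transcripts were higher. Quantile normalization widened its 3 changes to -0.41, -0.51 and -0.74, and cyclic loess gave -0.34, -0.44 and -0.72 (all adjusted p-values at or below 5.5e-05). On the linear scale the mean signals were 12.1%, 18.2% and 33.5% below those of untreated cells in the authors' scaling.

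Gapdh, which oxidises glyceraldehyde 3-phosphate and is widely used as a reference gene, was read on control probe sets for the 5′ end, the middle and the 3′ end of its transcript. The 3′ control read 6182, 7495 and 6297 on the pyruvate arrays, against 4487, 4701 and 4452 on the untreated arrays. The groups did not overlap on any of the 3 controls. The log2 changes were 0.53, 0.50 and 0.54 (adjusted p = 0.00018, 0.0003 and 0.00019 in the fit with controls kept, where 16.4% of 22555 probe sets were called higher). The class median was 0.43 and its upper quartile 0.52, so the 5′ and 3′ controls lay above that quartile. After quantile normalization the changes were -0.03, -0.02 and 0.09, none of which passed. After cyclic loess they were 0.31, 0.28 and 0.34 and still passed, but the median of their signal class was then still 0.24. Whether the Gapdh transcript changed thus depended on the scaling. The 3′ signal relative to the 5′ signal, a sign of RNA quality, differed by 0.01 between pyruvate and untreated cells on the log2 scale (exact permutation p = 0.6, two-sided).

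Phosphoglycerate kinase makes the first ATP of the pathway, and the probe sets of Pgk1 disagreed. The brightest read 6103, 7276 and 6970 with pyruvate, against 5184, 5444 and 5058 untreated. The probe set built on the RefSeq transcript read 5081, 6072 and 5509 with pyruvate, against 4547, 4827 and 4335 untreated. All pyruvate arrays were above the untreated ones on both, with log2 changes of 0.37 ± 0.07 and 0.28 ± 0.07 (SE; adjusted p = 0.0015 and 0.0094). The dimmest, built on an accession that is not a RefSeq transcript of Pgk1, went the other way. It read 485, 533 and 553 with pyruvate, against 722, 982 and 856 untreated, a log2 change of -0.68 ± 0.09 (SE; adjusted p = 0.00027). Which stretch of the transcript this dimmest probe set covers is not given in the tables used here. Both it and the brightest carry the name suffix (x), for probes that may also bind other transcripts.

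The positive changes of Pgk1 did not hold under another scaling. Both were below the median of their signal class, and after quantile normalization both were negative, at -0.13 (adjusted p = 0.020) and -0.13 (adjusted p = 0.014). After cyclic loess they were 0.17 (adjusted p = 0.013) and 0.09 (adjusted p = 0.17), below a class median of 0.24. The dimmest probe set was at -0.67 after quantile normalization and -0.70 after cyclic loess. Its class median was -0.00 in the authors' scaling. With the 3 probe sets averaged, Pgk1 had a log2 change of -0.01 (adjusted p = 0.93).

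To set Tpi1 and Pgk1 beside the known regulation of glycolytic genes by HIF, the 250 bases before each start are shown. They are from RefSeq, build GRCm38.p6, 5′ to 3′ on the gene's strand. Capitals mark ACGTG and GCGTG, the core letters of the hypoxia response element, searched on both strands.
Tpi1 (chr6:124814159-124814408, minus strand): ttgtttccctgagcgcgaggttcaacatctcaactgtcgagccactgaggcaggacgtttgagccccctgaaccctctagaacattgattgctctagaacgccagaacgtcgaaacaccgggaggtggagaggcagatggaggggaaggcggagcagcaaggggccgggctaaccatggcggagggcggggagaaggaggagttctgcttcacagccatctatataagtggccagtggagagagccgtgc
Pgk1 (chrX:106186850-106187099, plus strand): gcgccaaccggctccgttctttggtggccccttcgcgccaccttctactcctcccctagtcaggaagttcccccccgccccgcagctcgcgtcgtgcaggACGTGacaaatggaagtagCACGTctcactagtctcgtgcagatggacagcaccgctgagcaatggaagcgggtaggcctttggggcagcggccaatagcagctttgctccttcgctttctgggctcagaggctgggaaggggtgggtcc
The Pgk1 stretch held 2 matches, both ACGTG, the first on the plus strand and the other on the minus strand, where the printed strand reads CACGT. The Tpi1 stretch held 0. In windows that also take in the first 50 bases after the start, ACGTG or GCGTG on either strand was found in 43.8% of 32851 promoters, so a match is common. Among the 8 genes measured, at least 1 window held a match for Gapdh, Pgk1, Pgam1, Eno3 and Pkm, and none did for Tpi1, Pgam2 and Eno2.

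The phosphoglycerate mutases, which move the phosphate group within phosphoglycerate, had no firm call. Pgam1, the widely expressed form, read 2909, 3235 and 3664 with pyruvate, against 3239, 3454 and 3225 untreated. The groups overlapped and the spread was wider with pyruvate (SD 379) than untreated (SD 128). The log2 change was -0.02 with a 95% interval of -0.18 to 0.14 (adjusted p = 0.85), below its class median of 0.15. It was -0.22 after quantile normalization (adjusted p = 0.019) and -0.17 after cyclic loess (adjusted p = 0.065).

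Pgam2, the muscle form, was near the floor of the arrays in both groups. It read 5.1, 8.7 and 5.6 with pyruvate, against 18.4, 13.3 and 24.2 untreated. The pyruvate arrays were all below the untreated ones. In the limma fit without the signal filter, 6.26% of 45037 probe sets were called lower. Of the 22518 below that filter, 239 were called lower and 150 higher. In the same fit the Pgam2 log2 change was -0.62 with a 95% interval of -0.99 to -0.24 (adjusted p = 0.042). That call was lost on leaving out any 1 of the arrays except untreated array 2 (adjusted p = 0.058 to 0.12 in the 5 that lost it), and with a pseudocount of 1 in place of 16 (adjusted p = 0.066). With a replicate block it was lost as well (adjusted p = 0.091). It was kept after quantile normalization (-0.61, adjusted p = 0.047) and cyclic loess (-0.60, adjusted p = 0.046). With a pseudocount of 64 the change was -0.23 (adjusted p = 0.041). The median of its signal class was -0.06 over the probe sets tested, which were all brighter than Pgam2. Over the probe sets below the filter the median was -0.0002. Since 69.9% of probe sets were brighter, the size of a Pgam2 change was not resolved.

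Enolase, which forms phosphoenolpyruvate, was measured through its muscle and neuronal isozymes. Eno3, the muscle form, read 2916, 3368 and 2956 with pyruvate, against 2572, 2586 and 2510 untreated. All pyruvate arrays lay above all untreated ones, which were tightly grouped (SD 40.6). The log2 change was 0.26 ± 0.06 (SE; adjusted p = 0.0054), or 20.5% on the linear scale. The class median was 0.15. The change was 0.13 after both quantile normalization (adjusted p = 0.029) and cyclic loess (adjusted p = 0.053), so it stayed positive in each and passed only after quantile normalization.

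Eno2, the neuronal form, was dim, at 49.1, 43.6 and 55.4 with pyruvate and 59.3, 52.0 and 54.4 untreated. The groups overlapped, and the log2 change of -0.13 had a 95% interval of -0.40 to 0.15 (adjusted p = 0.47). The class median was -0.04. The change was -0.08 after quantile normalization (adjusted p = 0.66) and -0.08 after cyclic loess (adjusted p = 0.65). Of 5 neuron markers tested, 0 rose and 3 fell, against 14.5% of all genes called lower. These were Nefl and Nefm, subunits of neurofilaments, and Stmn2, a tubulin-binding protein, with changes of -0.41, -0.33 and -0.16. Nefl averaged 1015 ± 107 with pyruvate and 1354 ± 45.5 untreated (SD, n = 3 each). The synaptic markers Snap25 and Syp lay below the signal filter: Snap25 averaged 5.20 with pyruvate and 4.47 untreated, and Syp 27.8 with pyruvate and 20.9 untreated. Rbfox3, a splicing factor of mature neurons, was also dim, at 41.0 with pyruvate and 34.2 untreated. Tubb3 was brighter, at 305 with pyruvate and 299 untreated, and did not pass (0.05, limma adjusted p = 0.81). The summed signal of all 7 listed was 2709 to 3054 with pyruvate and 3332 to 3570 untreated, and its part in the Eno2 values was not tested.

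Pyruvate kinase, which makes pyruvate and the last ATP of the pathway, had the largest rise on the log2 scale among the 10 member probe sets tested, the Gapdh controls left aside. Pkm read 5122, 5538 and 5226 with pyruvate, against 3547, 3825 and 3505 untreated. The groups lay far apart compared with their spread (SD 216 with pyruvate and 174 untreated). The log2 change was 0.54 ± 0.05 (SE; adjusted p = 2.8e-05), or 46.0% on the linear scale, where the Gapdh 3′ control was higher by 46.4%. The class median was 0.43. The Pkm change was 0.23 after quantile normalization (adjusted p = 0.001) and 0.37 after cyclic loess (adjusted p = 4.8e-05). The class medians were then -0.002 and 0.24. Pkm was higher under all 19 alternatives run, and passed in each. The tables used here do not say whether its probe set separates the 2 splice forms, Pkm1 of adult muscle and Pkm2 of growing cells.

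**Figure D3:**
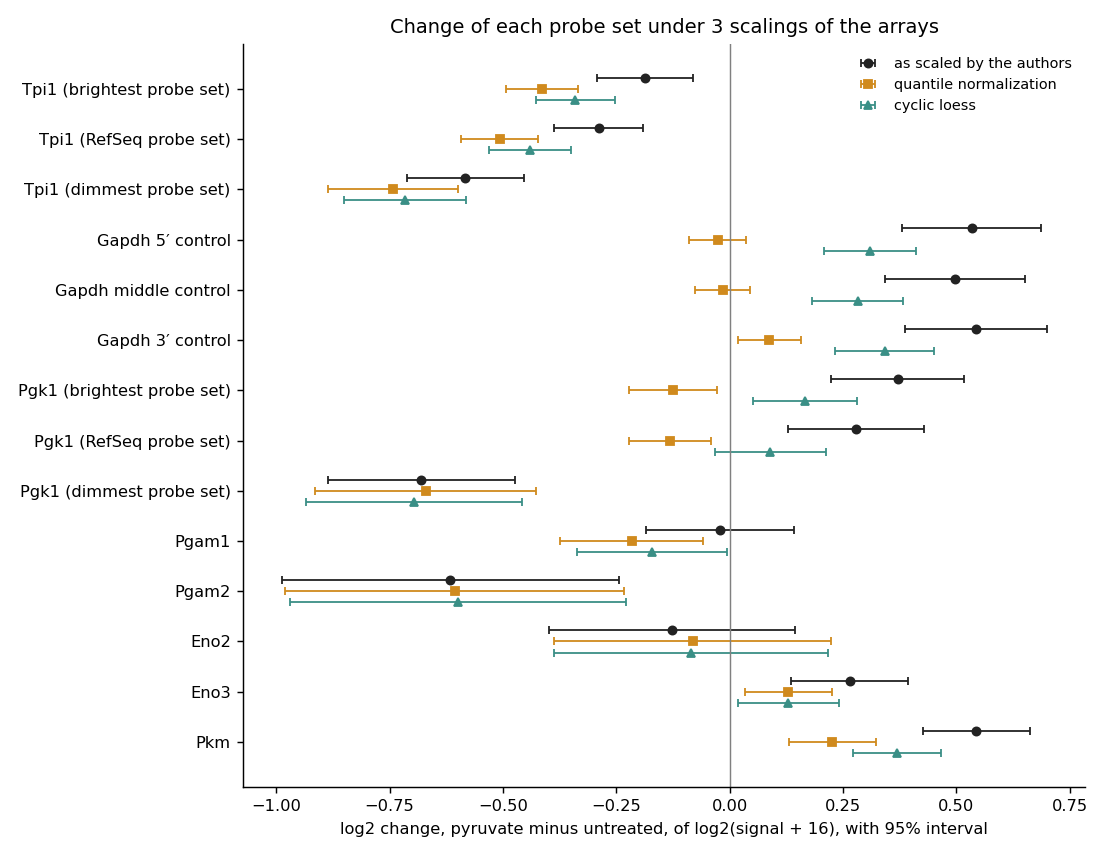
Log2 change, pyruvate minus untreated, of each member probe set with its 95% interval, in the authors' scaling (black), after quantile normalization (orange) and after cyclic loess (green). Tpi1 stays below 0 and Pkm above 0 in all 3. The 2 brighter Pgk1 probe sets change sign with quantile normalization, and the Gapdh controls move close to 0.

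The muscle isozymes were then set against widely expressed enzymes on the same array. This removes the array's overall scaling but not a shift that varies with signal. The difference of log2 values shows only whether the 2 transcripts changed unequally. Both contrasts with Eno1 could not be made. With 3 arrays against 3, the exact permutation test (two-sided) cannot give a p below 0.1, and 7 contrasts were adjusted together, 6 of them chosen after the data were seen. Relative to Tpi1, Eno3 was higher with pyruvate by 0.45, and relative to Pgam1 by 0.29. Relative to Pkm the difference was -0.28, and relative to the Gapdh 3′ control it was -0.28 as well. In these 4 contrasts the groups did not overlap (exact permutation p = 0.1, the smallest possible, and 0.12 adjusted). Against Pgk1 the difference was -0.11 with overlapping groups (exact permutation p = 0.2). Quantile normalization turned it to 0.25, that against Gapdh to 0.04, and left -0.10 against Pkm. After cyclic loess the differences were -0.04 against Pgk1, -0.22 against Gapdh and -0.24 against Pkm, the last 2 again without overlap. In the authors' scaling Eno3 thus lay between the widely expressed enzymes in its change, above Tpi1 and Pgam1 and below Pkm and Gapdh. Tpi1 and Pgam1 share the signal class of Eno3 (median change 0.15), while Pkm, Pgk1 and Gapdh are in the brightest (0.43). After cyclic loess these class medians still differed, at 0.01 and 0.24. The part of this gap between classes in the differences was not tested.

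Within the mutases, the change of Pgam2 minus that of Pgam1 was -0.59 (exact permutation p = 0.1, 0.12 adjusted, no overlap). After quantile normalization it was -0.39 and after cyclic loess -0.43, with overlapping groups in both (exact permutation p = 0.2). It also depended on the pseudocount: it was -1.37 with a pseudocount of 1 and -0.21 with a pseudocount of 64 (exact permutation p = 0.3). Against Eno2, Eno3 was higher by 0.39 (exact permutation p = 0.1, 0.12 adjusted), and by 0.21 after either normalization with overlapping groups (exact permutation p = 0.2). Signal classes differ here too, with medians of -0.04 for Eno2, and 0.15 for Pgam1 and Eno3. For Pgam2 the median was -0.06 over the brighter, tested probe sets of its class, and -0.0002 over those below the filter.

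**Figure D4:**
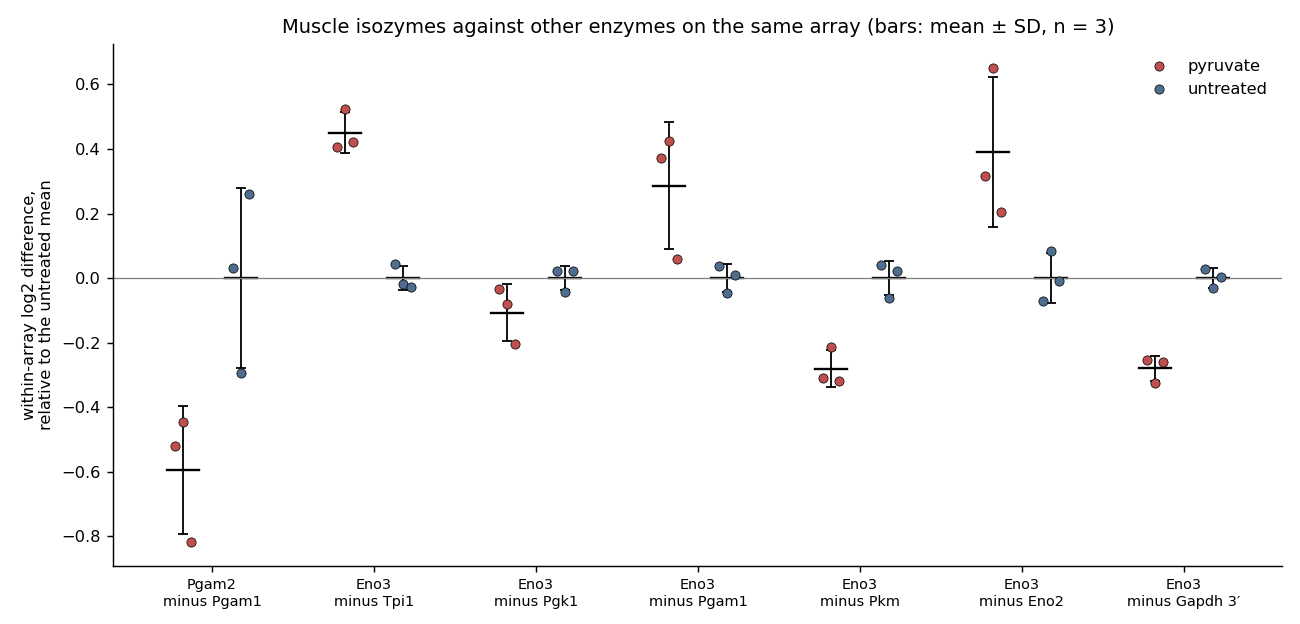
Within-array log2 difference between a muscle isozyme and another enzyme, set to 0 at the untreated mean. Points are arrays, with pyruvate in red and untreated in blue, and bars the mean ± SD of 3. Eno3 lies above 0 with pyruvate against Tpi1 and Pgam1 and below 0 against Pkm and the Gapdh 3′ control.

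Most listed markers of differentiated muscle were far lower in pyruvate cells, while Eno3 was higher in the authors' scaling. Pfkm, the muscle type of phosphofructokinase, was higher too (0.51, adjusted p = 0.00043). The muscle isozyme Pgam2, near the floor, was lower, with a change of -0.62 in the fit without the signal filter. Of 12 tested markers of myotubes, 0 rose and 11 fell, against 14.5% of all genes called lower. The median log2 change was -2.25, against 0.03 over all genes. Tnnc2, a troponin of fast muscle, averaged 35.2 ± 4.85 with pyruvate and 486 ± 36.7 untreated (SD, n = 3 each), a change of -3.30. Myog, the factor that starts myoblast differentiation, averaged 212 ± 40.1 with pyruvate and 1738 ± 44.1 untreated (-2.96). The labels call the cells undifferentiated, yet this marker of differentiation was bright in untreated cells. Acta1, skeletal muscle actin, changed by -3.28 and Actc1, cardiac actin, by -3.25. The summed signal of the 14 listed markers was 1037 to 1217 on the pyruvate arrays and 7130 to 7709 on the untreated arrays. In a bulk sample, fewer myotube-like cells and less of these transcripts per cell cannot be told apart, and their part in the values of Eno3 and Pgam2 was not tested. Of 7 myoblast markers 3 rose and 3 fell, against 20.7% and 14.5% of all genes. Myod1, the factor that commits cells to muscle, averaged 1525 ± 23.3 with pyruvate and 1268 ± 77.0 untreated (0.26, adjusted p = 0.0029). Myf5, a related factor, changed by -0.65, and Cdh15, a cadherin of myoblasts, by -0.39. Vim, encoding vimentin, changed by 0.50, and by -0.03 after quantile normalization.

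The 250 bases before the starts of Pgam2 and Eno3 are shown for comparison, from the same table and in the same direction. Capitals mark CANNTG, the E-box that the myogenic factors bind. Since its ends mirror each other, a match counts once for both strands.
Pgam2 (chr11:5803797-5804046, minus strand): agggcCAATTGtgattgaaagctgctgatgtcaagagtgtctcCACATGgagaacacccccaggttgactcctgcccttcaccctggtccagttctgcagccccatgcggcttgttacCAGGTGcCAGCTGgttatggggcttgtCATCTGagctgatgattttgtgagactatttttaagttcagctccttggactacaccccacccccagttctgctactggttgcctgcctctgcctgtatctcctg
Eno3 (chr11:70656926-70657175, plus strand): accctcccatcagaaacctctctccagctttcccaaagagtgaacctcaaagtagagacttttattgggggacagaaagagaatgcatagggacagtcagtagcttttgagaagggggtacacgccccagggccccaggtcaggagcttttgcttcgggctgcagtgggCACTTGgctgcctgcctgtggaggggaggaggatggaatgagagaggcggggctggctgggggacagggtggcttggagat
Pgam2 had 5 matches and Eno3 1 in these stretches. In the windows with 50 further bases Pgam2 again had 5 and Eno3 had 2. CANNTG was in 72.3% of all 32851 windows, so its presence sets neither gene apart. The Eno3 start in this table lies inside the annotated gene span, downstream of a further start.

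Among 7 upper glycolysis genes tested, 1 rose and 2 fell (median change -0.01), where 35.1% of all genes passed. After quantile normalization 1 rose and 3 fell. Phosphofructokinase, which commits sugar to the pathway, split by subunit. Pfkl, the liver-type subunit, averaged 675 ± 17.3 with pyruvate and 1064 ± 63.3 untreated (-0.64, adjusted p = 9.6e-06). Pfkp, the platelet type, changed by -0.49 (adjusted p = 5.3e-05) and Pfkm, the muscle type, by 0.51 (adjusted p = 0.00043). These changes were nearly the same after quantile normalization, at -0.64, -0.47 and 0.52.

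Of 12 tested genes at the ends and branches of lower glycolysis, 2 rose and 1 fell (median change 0.03), a share below the 35.1% of all genes. After quantile normalization 2 rose and 3 fell, with a median of -0.01. Bpgm, which makes 2,3-bisphosphoglycerate from the substrate of Pgk1, averaged 185 ± 21.6 with pyruvate and 136 ± 6.80 untreated (0.40, adjusted p = 0.0081). Phgdh, the entry to serine synthesis, rose by 0.34 (adjusted p = 0.00055), and Gpd2, the mitochondrial glycerol-3-phosphate dehydrogenase, fell by 0.28 (adjusted p = 0.0033). Ldha, which makes lactate from pyruvate, had a change of 0.04 that did not pass (adjusted p = 0.60), and of -0.28 after quantile normalization (adjusted p = 9.3e-05). Of 8 tested regulators of Pkm splicing and of glycolysis, 1 rose and 1 fell, also a share below that of all genes. After quantile normalization 1 rose and 2 fell. Hnrnpa2b1, a splicing repressor that favours Pkm2, changed by -0.26 (adjusted p = 0.002), and Myc, which promotes glycolytic gene expression, by 0.33 (adjusted p = 0.0019).

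HIF targets outside glycolysis were mostly lower in pyruvate cells. Of 12 tested, 0 rose and 9 fell, against 14.5% of all genes called lower, and the median change was -0.49. Pdk1, a kinase that switches off pyruvate dehydrogenase, averaged 112 ± 7.05 with pyruvate and 397 ± 9.31 untreated (-1.69). Bnip3, a mitophagy receptor, changed by -1.11 and Egln3, an oxygen sensor that marks HIF for destruction, by -0.90. After quantile normalization 8 fell and 0 rose (14.6% of all genes called lower). Hif1a itself had a change of -0.12 that did not pass (adjusted p = 0.080), and of -0.19 after quantile normalization (adjusted p = 0.008).

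The pattern over the 6 arrays most like that of Eno3 was found for Cdk4 (Pearson r = 0.99), Rps7 (0.99) and Nfatc1 (0.99), and most like that of Pgam2 for Vsir (0.99), Xirp1 (0.99) and Rnf138 (0.99). An r over 0.9 was found for 726 of 10376 genes with Eno3 and for 488 of 10377 with Pgam2. With 6 arrays in 2 groups such values are common, and they are given as a description only.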

How the data were processed

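The deposited values are linear MAS5 intensities for each probe set, per the submitters' processing notes, which name no version. The trimmed mean without the lowest and highest 2% was close to 150 on all arrays (149.4 to 149.9), and this scaling was kept as deposited. Median signals were 30.3 to 33.0, and arrays correlated at r = 0.979 to 0.991. Arrays have no read depth, and their number limits the precision.

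Signals were used as log2(signal + 16), so folds of dim genes are understated. The 64 control probe sets were left out, and probe sets with a mean at or above the median were kept. Groups were compared with limma 3.58.1 in R 4.3.3 (mean-variance trend, two-sided, no block), with Benjamini-Hochberg adjustment over 22519 probe sets and a threshold of 0.05. The brightest probe set stood for its gene. Symbols came from the platform annotation and matched the RefSeq table. On simulated data for this comparison, with 22519 probe sets in the fit, 10% of 50 probe sets changed by 0.25 were recovered, 52% at 0.5, 92% at 1 and 100% at 2. The changed probe sets were drawn over all signal classes. Only 129 were called there, against 7250 in the data, so a lower raw p was needed to pass. These shares therefore do not give the recovery of changes among the members. The named genes were all members, and up to 3 called genes with the largest absolute change from each list (up to 2 where none passed), and for Eno3 and Pgam2 the 3 genes most like them. Ldha, Hif1a, Myog and Myod1 fall outside this rule and were chosen after their values were seen, as were Adipoq, Fabp4, Snap25, Syp, Rbfox3 and Tubb3. Members and lists were chosen with earlier results of these data known. The labels do not say whether samples were separate cultures, so the spread behind the p-values may be technical. The alternatives were other pseudocounts, filters, normalizations, variance models, array weights, a replicate block, probe set averaging, controls kept and each array left out. Samples of the same replicate number did not deviate together (r = -0.01, 0.01 and 0.02). Figures were drawn with matplotlib 3.10.9.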

Additional observations from a re-analysis of the deposited data

How the results depend on the processing

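The number of lower glycolysis genes called, 4, was between 3 and 5 under every alternative run, and that of probe sets, 8, between 6 and 9. Directions moved more than counts: 4 probe sets rose and 4 fell in the authors' scaling, 2 rose and 7 fell after quantile normalization, and 2 rose and 4 fell after cyclic loess. Over all probe sets 7250 were called, and 5377 to 7500 under the alternatives. With the replicate number as a block, 6917 probe sets, 4 genes and 8 member probe sets were called. Whether the numbers pair the samples is not stated in the labels. Under the block no call on a gene's brightest probe set changed among the 6 genes tested, and that of Pgam2 without the filter was lost (adjusted p = 0.091). With each array left out, all probe sets called ranged from 5377 to 7048, genes from 3 to 4 and member probe sets from 7 to 8.

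The change of Pgk1 reversed with quantile normalization, to -0.13 on its brightest probe set and -0.13 on the RefSeq one, and to -0.010 with probe sets averaged. That of Pgam1, not called, was 0.013 with median centring, 0.0073 with array weights and -0.11 to 0.059 with each array left out. The difference between Eno3 and Pgk1 reversed to 0.25 with quantile normalization, and that between Eno3 and the Gapdh 3′ control to 0.040. The causes were not tested. The difference between Pgam2 and Pgam1 kept its sign in all 12 alternatives, with overlapping groups in some, and ran from -0.74 to -0.46 with each array left out. The contrasts of Eno3 and Eno2 with Eno1 were not run, as Eno1 had no probe set. No detection calls were used, so for Pgam2 signal over background was not known. The contrasts of Eno3, the further probe sets and the Pgam2 call without the filter were examined under alternatives chosen after seeing the data.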

Other observations

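Marker lists for cell types outside muscle were read as well. Of 3 tested adipocyte markers 2 rose, against 20.7% of all genes called higher. Lpl, lipoprotein lipase, averaged 334 ± 28.5 with pyruvate and 149 ± 2.39 untreated (SD, n = 3 each), a log2 change of 1.08 (adjusted p = 2.4e-06), and Cebpa, a transcription factor of adipocytes, changed by 0.84 (adjusted p = 0.0004). Adipoq and Fabp4, which define mature adipocytes, were too dim to be tested. Adipoq averaged 11.3 with pyruvate and 9.83 untreated, and Fabp4 15.8 with pyruvate and 18.4 untreated. Of 2 tested macrophage markers 0 passed (Cd68 at 0.17 and Csf1r at 0.25, adjusted p = 0.41 and 0.28), by limma.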
